A study of Bos taurus and Cervus elaphus with 24 samples.

Results

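Monocyte and macrophage marker genes were followed in cattle and deer blood between the dry period and peak lactation. The set holds 10 genes, CD14, CD68, CD163, CSF1R, VCAN, CTSS, FGL2, OSCAR, LY86 and TYROBP, and its members were taken by gene name from the non-control probes of a bovine oligonucleotide array. These 10 genes are read by 18 of the 43653 non-control probes, and the array names 16072 genes in all. The choice used no measured value of these arrays, although earlier results of the same data were known when the set was proposed.

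There are 6 groups, with 4 arrays in each. Blood came from 4 Holstein-Friesian cattle (HF), a high-yielding dairy breed, 4 Polish Red cattle (PR), a local Polish breed, and 4 deer. Every animal was bled in both states, once when dry and once at peak lactation, so the subject numbers are read here as animals. In cattle the dry period is the rest from milking before calving, and the labels use the same name for deer. Animal RNA carried the Cy5 dye on every array, and the Cy3 dye marked a common reference pooled from 20 cattle outside the groups, so deer RNA was compared with cattle RNA on cattle probes. The labels give no age, yield or cell count. They name the material as nuclear cells of peripheral blood, yet the collection and extraction kits are those for fixed blood, and no sort of monocytes is described. Every value below is a log2 ratio of Cy5 over Cy3 for a single probe, and levels of different probes are not compared.

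Monocytes are circulating phagocytes that leave the blood and can become macrophages or dendritic cells in tissue. They take up microbes and dying cells, digest them in lysosomes, and sense bacterial products through surface receptors. In dairy cows they are known for their part in defence of the udder and in the inflammation around calving. In whole blood a lower marker level can mean fewer cells of a type or less RNA per cell, and these cannot be told apart here.

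The sequences of 6 probes are shown because they bear on the results below. They read the receptor gene with the largest difference between states in HF and the matrix gene with the largest breed difference in dry cattle. Also shown are a lysosomal and a growth factor receptor probe that were higher in deer, and both probes of the gene lowest in deer. The CSF1R probe is the dimmest of its 3, and values of that gene below are from its brightest probe unless stated. The LY86 pair overlaps by 35 bases, given in capitals, so its probes are not independent measurements. Each is 60 bases, as the files give it.
OSCAR probe 1: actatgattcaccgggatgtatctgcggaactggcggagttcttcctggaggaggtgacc
VCAN probe 1: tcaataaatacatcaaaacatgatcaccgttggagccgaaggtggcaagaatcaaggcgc
CD68 probe 1: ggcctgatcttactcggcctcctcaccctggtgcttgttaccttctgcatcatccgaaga
CSF1R probe 3: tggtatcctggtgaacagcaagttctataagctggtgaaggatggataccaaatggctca
LY86 probe 1: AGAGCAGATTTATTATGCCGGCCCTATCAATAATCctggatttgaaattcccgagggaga
LY86 probe 2: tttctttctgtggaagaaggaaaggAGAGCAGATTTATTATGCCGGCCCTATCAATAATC

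On the UMD 3.1 cattle assembly these lie at chr18:63470908-63470967 on the plus strand (OSCAR), chr7:85782776-85782835 on the plus strand (VCAN), chr19:27923710-27923769 on the plus strand (CD68) and chr7:63381447-63381506 on the minus strand (CSF1R). The LY86 probes span chr23:48385815-48398332 and chr23:48389799-48398357 on the minus strand. Those stretches are longer than the probes, as is that of the CD163 probe at chr5:102249050-102251237 on the plus strand. Exon and untranslated region assignments were not made, because the annotation used here is on another assembly. The first and second CSF1R probes share 52 bases. Probes of a gene are numbered by brightness, and a gene is represented by probe 1 unless stated.

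All 18 probes were well above background on 24 of 24 arrays and none was saturated. Median Cy5 brightness over the spots was 109 to 255 on 23 of the arrays. PR dry animal 1 stood apart at 2038, with a spike-in r2 of 0.331 in its header. The 4 arrays of HF animals 2 and 3 had spike-in r2 values of 0.174 to 0.401, against 0.899 or more on the remaining arrays. Values without these arrays are given beside the results between states that they moved most.

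At peak lactation 9 of the 10 members were higher than in the dry period in HF, but none passed the threshold. The median difference over the members was 0.61, beside -0.01 over the 33101 probes tested. No member was among the 3 probes called by limma at an adjusted p under 0.05 (0.00906% of those tested). At an unadjusted p under 0.05, 7 members were higher and none lower, against 4.83% of all probes higher and 2.82% lower at that level. In 3 members, OSCAR, VCAN and CTSS, no lactation array overlapped the dry arrays, a pattern shown by 3.32% of all probes in that direction. The lowest adjusted p among the members was 0.173. Without both arrays of HF animals 2 and 3, 9 members were still higher but only OSCAR had an unadjusted p under 0.05, and the median was 0.23.

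**Figure D1:**
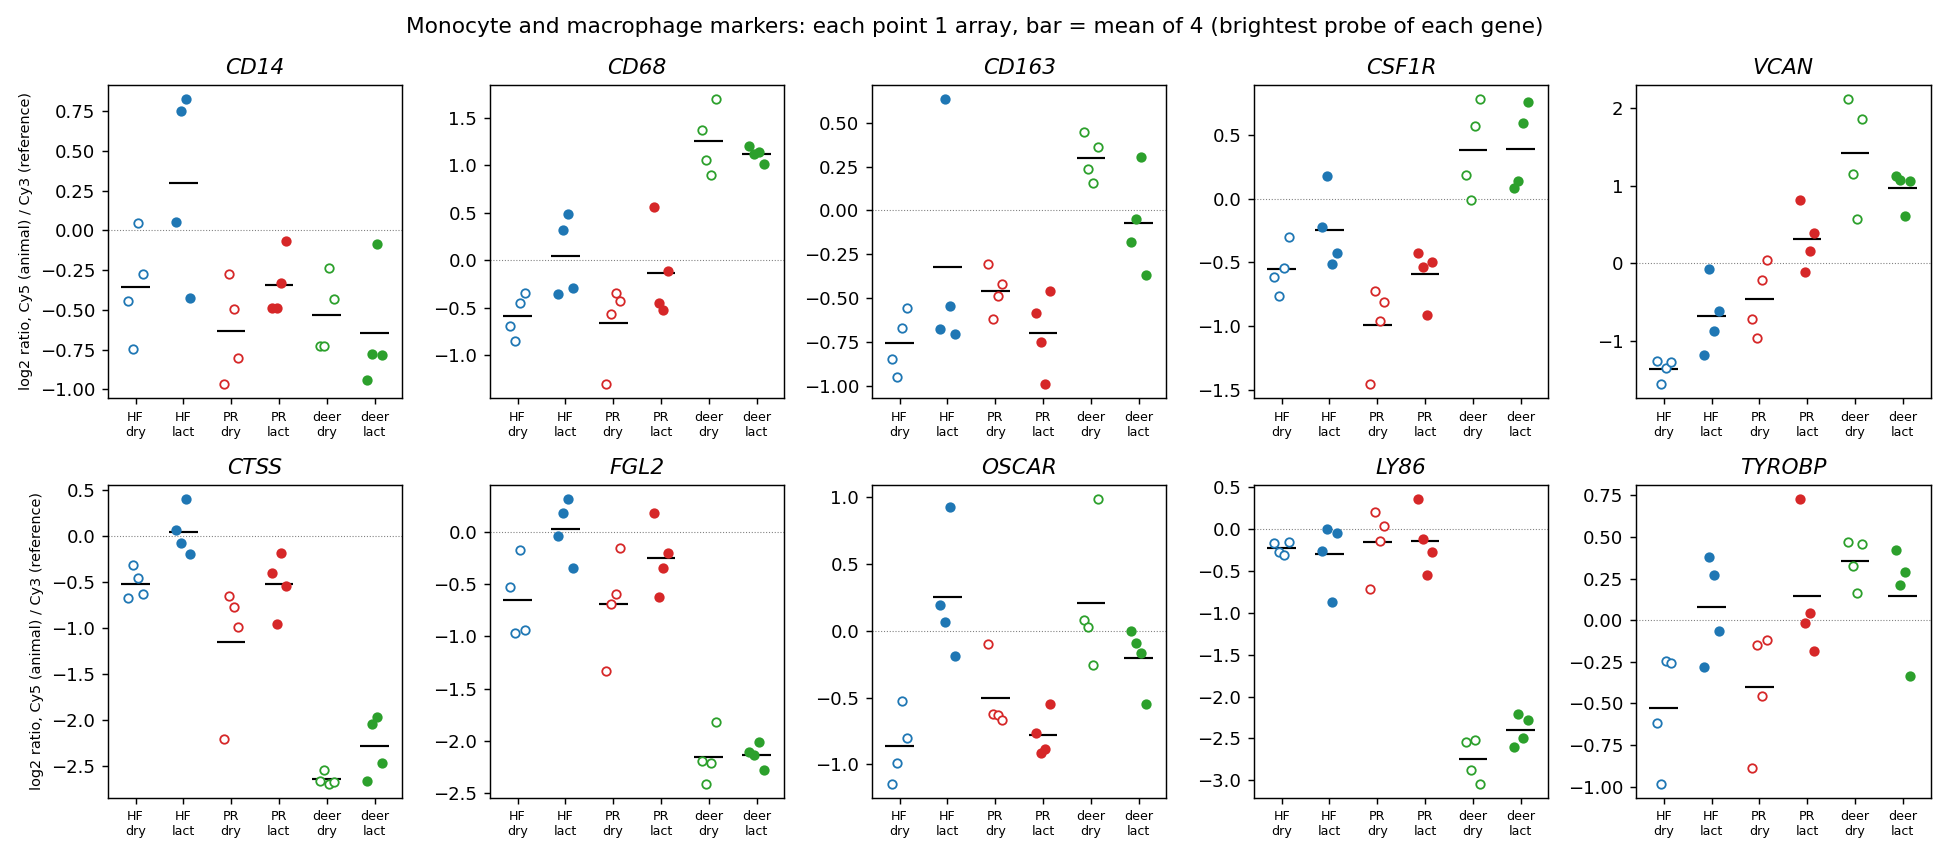
Log2 ratio of Cy5 (animal) over Cy3 (cattle reference) on the vertical axis for the brightest probe of each member, by group on the horizontal axis; each point is 1 array and each bar the mean of 4. OSCAR, VCAN and CTSS separate the HF states without overlap, while LY86 lies between -3.04 and -2.21 on the 8 deer arrays and at -0.87 or above on all cattle arrays.

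Among the activating receptors, OSCAR showed the largest difference of any member in HF. Its product is an immunoglobulin-like receptor of myeloid cells that binds collagen and signals through the Fc receptor gamma chain. On HF arrays of animals 1 to 4 it read -1.14, -0.99, -0.52 and -0.80 in the dry period and 0.20, 0.06, 0.92 and -0.19 during peak lactation. Every lactation array was above every dry array, and animal 3 was the highest of its group in both states. The difference was 1.11 (SE 0.23, limma adjusted p = 0.173), a 2.16-fold higher ratio, and was positive in 4 of 4 animals.

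In PR the same probe read -0.10, -0.62, -0.63 and -0.67 in the dry period and -0.77, -0.92, -0.89 and -0.55 during peak lactation. Apart from dry animal 1, the bright array, PR arrays of both states lay close together and overlapped. The PR difference was -0.27 (SE 0.23, limma adjusted p = 0.890) and was positive in 1 of 4 animals; without PR dry animal 1 it was -0.14. The HF difference exceeded the PR difference by 1.39 (SE 0.33, unadjusted p = 0.0004 in limma), yet its adjusted p over all 33478 probes was 1.0. Without PR dry animal 1 it was 1.25, with the same adjusted p. At an unadjusted p under 0.05 in that direction, OSCAR and CD163 stood beside 1.28% of all probes, and limma called none of them (0%).

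Deer OSCAR values were 0.08, 0.03, -0.26 and 0.99 in the dry period and -0.0036, -0.09, -0.16 and -0.55 during peak lactation. The states overlapped, and animal 4 was the highest dry and the lowest lactation array. The deer difference was -0.41 (SE 0.23, limma adjusted p = 0.614), and that animal's own difference was -1.54. Without its dry array the difference was -0.15. With slide as a term the deer difference was -0.017, which rests on the only slide that held both deer states. That slide held the dry array of animal 3 and the lactation arrays of animals 1 and 4.

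The authors' deposited table of transcripts that differed in HF, which holds 437 probes or 1.00% of the array, includes the OSCAR probe and no other member. In the authors' deposited table its normalized log2 values averaged -0.51 over HF dry and 0.82 over HF lactation arrays. The authors' deposited tables for PR (158 probes) and deer (576 probes) hold none of the members. The test that the study names, a one-way analysis followed by Tukey's procedure over the 6 groups, was also run across all probes. Without adjustment over probes it called 359 in HF (1.08%), OSCAR being the 1 member. In PR it called 129 probes (0.396%) and in deer 365 (1.09%), with no member in either.

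TYROBP encodes the small adaptor that passes signals from several activating receptors of myeloid and NK cells to the kinase SYK. Its HF values were -0.62, -0.98, -0.24 and -0.26 in the dry period and -0.28, 0.38, 0.27 and -0.06 during peak lactation. The groups overlapped by 1 lactation array, that of animal 1, and all 4 animals were higher at peak lactation. The difference was 0.60 (SE 0.22, limma adjusted p = 0.469), or 0.27 without HF animals 2 and 3. In PR it read -0.89, -0.15, -0.46 and -0.12 and then 0.73, -0.02, 0.04 and -0.18, a difference of 0.55 (SE 0.22, adjusted p = 0.849 in limma). PR animal 1 alone differed by 1.62, and without its lactation array the PR difference was 0.35. In deer the dry arrays lay between 0.17 and 0.47 and the lactation arrays between -0.33 and 0.43, so the states overlapped.

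The receptors for microbial products and for haemoglobin come next. CD14, the co-receptor that hands lipopolysaccharide to the Toll-like receptor TLR4, read -0.45, -0.74, 0.04 and -0.28 in dry HF and 0.05, 0.75, 0.83 and -0.43 at peak lactation. Animals 2 and 3 held the highest lactation values and animal 4 was lower at peak lactation than in the dry period. The difference was 0.66 (SE 0.24, limma adjusted p = 0.476) for the brightest probe, and 0.17 without HF animals 2 and 3. CD14 probe 3 differed by 0.12. In PR the brightest CD14 probe differed by 0.29, or 0.18 without dry animal 1, with dry arrays from -0.96 to -0.28 and lactation arrays from -0.49 to -0.07.

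LY86 encodes a secreted partner of the receptor homologue CD180 on B cells and myeloid cells. Its HF values were -0.16, -0.27, -0.31 and -0.15 in the dry period and -0.26, 0.000335, -0.87 and -0.05 during peak lactation. It was the 1 member below 0 in the HF comparison, at -0.07 (SE 0.21, limma adjusted p = 0.992). Lactation animal 3 was far below the others, and without that array the difference became 0.12. In PR the difference was 0.01 (SE 0.21), which turned to -0.18 without dry animal 1.

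CD163, the scavenger receptor for haptoglobin-bound haemoglobin, read -0.85, -0.95, -0.67 and -0.55 in dry HF. At peak lactation it read -0.67, 0.63, -0.54 and -0.70. A single array, that of animal 2, lay above all the rest. The difference of 0.43 (SE 0.21, limma adjusted p = 0.667) became 0.11 without it and 0.011 without HF animals 2 and 3. PR values ran the other way, from -0.62 to -0.30 in the dry period and from -0.99 to -0.46 at peak lactation, a difference of -0.24 (SE 0.21, adjusted p = 0.898 in limma). HF and PR differences on CD163 differed by 0.67 (SE 0.30, unadjusted p = 0.0363 in limma), with an adjusted p of 1.0. Without HF lactation animal 2 that value was 0.35.

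CSF1R is the receptor for the growth factors CSF1 and IL34, which monocytes need to survive and mature. In HF its values were -0.61, -0.76, -0.55 and -0.30 in the dry period and -0.22, 0.18, -0.51 and -0.43 during peak lactation. The states overlapped and the difference was 0.31 (SE 0.20, limma adjusted p = 0.816). It was 0.17 without HF lactation animal 2 and 0.13 without HF animals 2 and 3. All 3 of its probes gave HF differences between 0.30 and 0.38. PR arrays went from -1.45, -0.73, -0.96 and -0.81 to -0.42, -0.54, -0.92 and -0.49, a difference of 0.39 (SE 0.20) for the brightest probe, or 0.24 without dry animal 1. CSF1R probe 3 differed by -0.04 in PR, so the probes did not share a sign there.

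The lysosomal members were higher at peak lactation in both breeds, short of the threshold. CD68, a heavily glycosylated membrane protein of the lysosome, read -0.69, -0.85, -0.45 and -0.35 in dry HF and -0.35, 0.32, 0.49 and -0.29 at peak lactation. All 4 animals were higher at peak lactation, animal 4 by only 0.06, and the difference was 0.63 (SE 0.24, limma adjusted p = 0.505), or 0.20 without HF animals 2 and 3. The second CD68 probe differed by 0.94. In PR the values were -1.30, -0.57, -0.35 and -0.43 and then 0.56, -0.45, -0.53 and -0.12. Animal 1 held both the lowest dry and the highest lactation array there, and the PR difference was 0.53 (SE 0.24, limma adjusted p = 0.849). It was 0.31 without that dry array and 0.30 without that lactation array.

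CTSS is the cysteine protease cathepsin S, which trims the invariant chain of class II molecules. HF arrays read -0.67, -0.31, -0.45 and -0.63 in the dry period and 0.07, -0.07, 0.41 and -0.20 during peak lactation. The states did not overlap, and the difference was 0.57 (SE 0.25, limma adjusted p = 0.578). Its second probe gave 0.57 as well. Over the alternatives run the HF difference of CTSS ranged from 0.14 to 0.65. Leaving out single arrays gave 0.45 to 0.65, so the low end came from another alternative. PR dry arrays read -2.20, -0.65, -0.76 and -0.98 against -0.40, -0.95, -0.18 and -0.54 at peak lactation. The lowest is the bright array, and the difference of 0.63 (SE 0.25, adjusted p = 0.849 in limma) became 0.28 without it.

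The members that code for secreted or matrix proteins followed. VCAN, the large chondroitin sulphate proteoglycan versican that marks classical monocytes in human blood, read -1.26, -1.56, -1.35 and -1.27 in dry HF and -1.18, -0.07, -0.88 and -0.62 at peak lactation. Dry arrays lay within a narrow band and every lactation array was above it. The difference was 0.67 (SE 0.29, limma adjusted p = 0.574), or 0.37 without HF animals 2 and 3. In PR the arrays went from -0.72, -0.97, -0.22 and 0.05 to 0.82, -0.12, 0.15 and 0.39, higher in 4 of 4 animals by 0.78 on average (SE 0.29, adjusted p = 0.849). Deer values were 2.12, 1.15, 0.57 and 1.86 and then 1.13, 1.07, 0.61 and 1.07, a difference of -0.45 (SE 0.29, limma adjusted p = 0.654). Deer states shared a single slide, with the dry array of animal 3 and the lactation arrays of animals 1 and 4. With slide as a term the VCAN difference rests on those arrays alone and became 0.53. Without a slide term it was -0.22 without deer dry animal 1 and -0.74 without deer dry animal 3.

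FGL2 encodes a fibrinogen-like protein made by monocytes, macrophages and T cells. Its HF arrays read -0.52, -0.97, -0.17 and -0.93 in the dry period and -0.04, 0.18, 0.32 and -0.35 during peak lactation. All 4 animals were higher at peak lactation, and the difference was 0.68 (SE 0.22, limma adjusted p = 0.407). In PR the arrays went from -1.33, -0.69, -0.59 and -0.15 to 0.19, -0.62, -0.34 and -0.20. The PR difference was 0.44 (SE 0.22, limma adjusted p = 0.849), with animal 1 at 1.52 and the other three between -0.05 and 0.25. Without PR dry animal 1 it was 0.23.

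**Figure D2:**
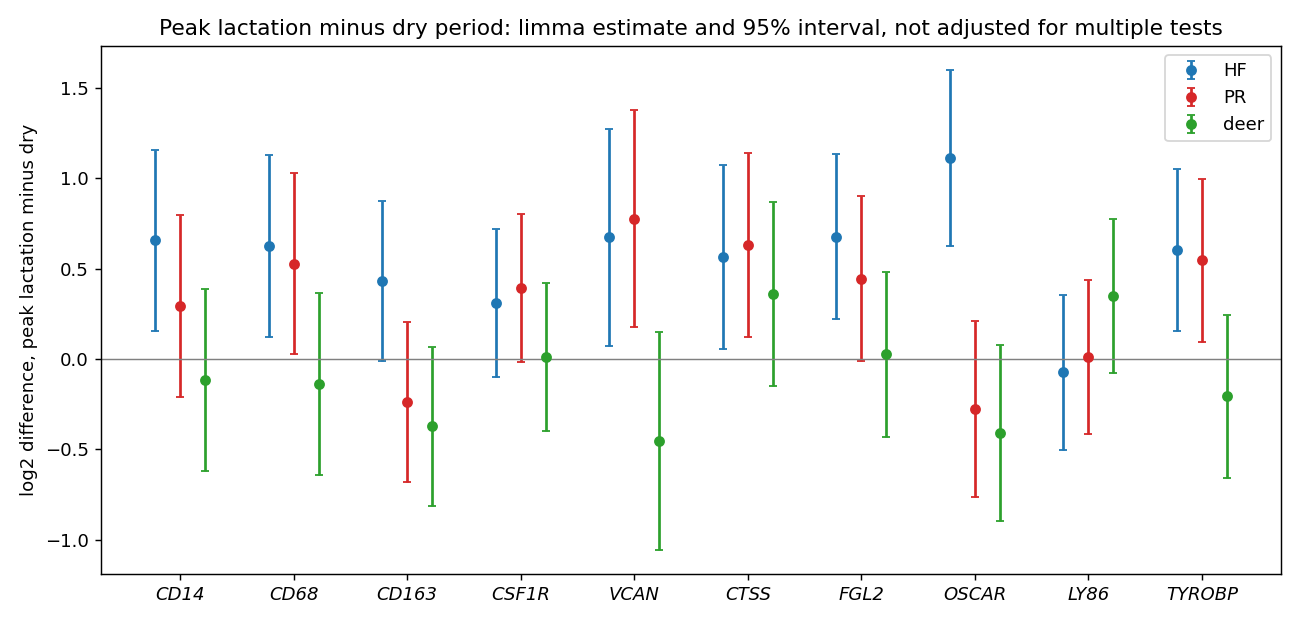
Difference of log2 ratios, peak lactation minus dry period, on the vertical axis for each member, with the limma 95% interval, in HF, PR and deer. In HF the intervals of 7 members lie above 0, as do 4 in PR and none in deer, but no member passes after adjustment over all probes.

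In PR, 8 of 10 members were higher at peak lactation, with a median of 0.42 beside 0.02 over the 32590 probes tested. Limma called no probe there (0% of those tested), and at an unadjusted p under 0.05 it gave 4 members, all higher, VCAN, CTSS, TYROBP and CD68, against 4.24% of all probes higher and 1.3% lower at that level. No PR member separated the states, which 0.942% of all probes did upward and 1.2% downward. Without PR dry animal 1, the bright array, 7 members were higher, only VCAN had an unadjusted p under 0.05, and the median over the members was 0.23. Over both breeds together, 9 of 10 members were higher at peak lactation and 8 had an unadjusted p under 0.05, against 5.91% of all 33478 probes in that direction. None was called, while limma called 1 probe (0.00299%), and the lowest adjusted p was 0.207, for TYROBP at 0.57 (SE 0.15). Without HF animals 2 and 3 the 8 became 4, and without PR dry animal 1 as well they became 3.

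In deer, 4 of the 10 members were higher and 6 lower at peak lactation, with a median of -0.13. Limma called 2 of 33389 probes (0.00599%) and no member, and no member reached an unadjusted p under 0.05, against 9.05% of all probes. Among the brightest probes, CTSS was higher in 4 of 4 deer, animal 1 by only 0.0081, and by 0.36 on average (SE 0.25, limma adjusted p = 0.681). With slide as a term it was 0.13, from the only slide that held both deer states. The deer difference minus the mean cattle difference was below 0 in 9 of 10 members, with a median of -0.56. It was -1.18 (SE 0.35) for VCAN, -0.83 for OSCAR, -0.78 for TYROBP and -0.72 for CD68. With slide as a term VCAN was -0.10, OSCAR -0.42 and CD68 -0.39, where the deer side again rests on that slide alone. Those 4 had an unadjusted p under 0.05, against 3.82% of all 35431 probes in that direction, while their adjusted p-values were 0.568 or more and limma called none of the probes (0%).

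**Figure D3:**
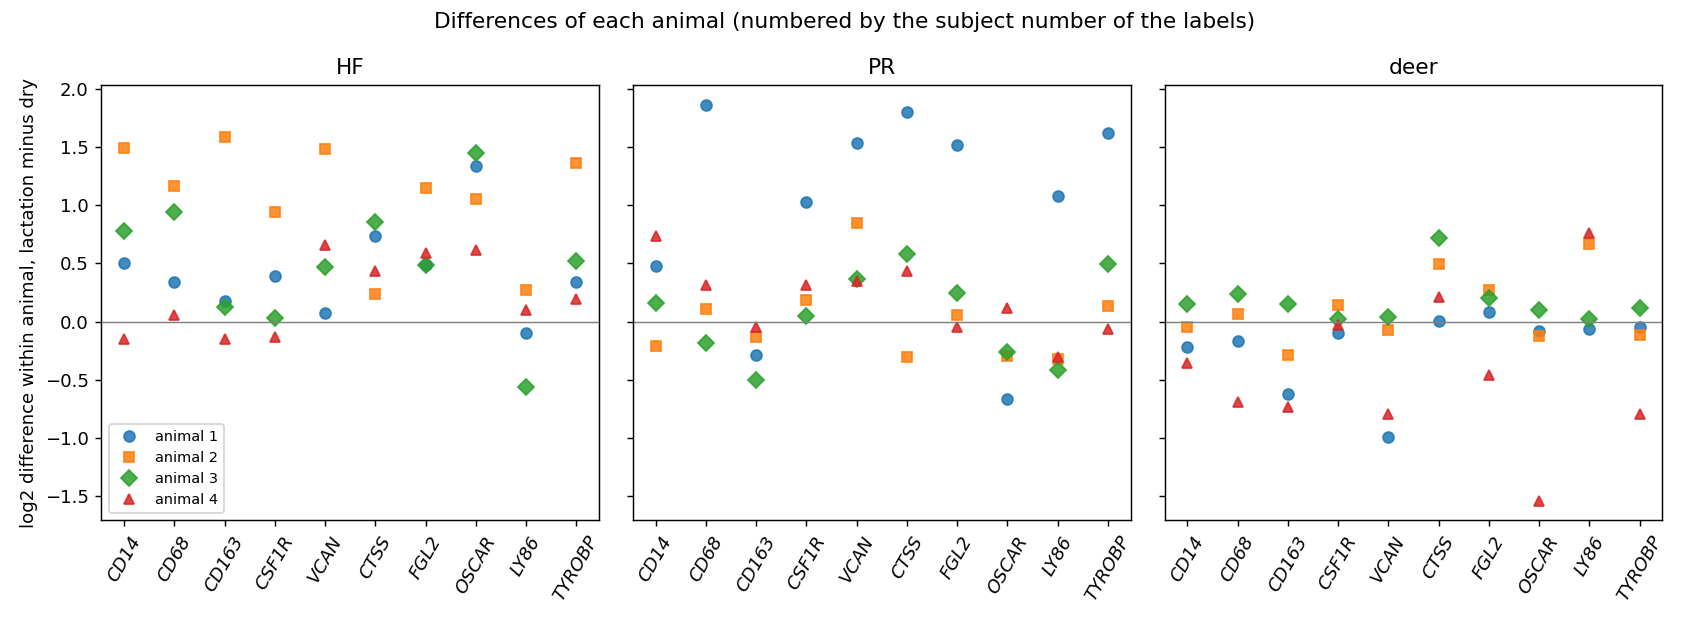
Difference of log2 ratios within each animal, peak lactation minus dry period, on the vertical axis by member, in separate panels for HF, PR and deer. HF animal 2 and PR animal 1 show the highest single values and medians in their panels, with medians over the members of 1.16 and 1.30. PR animal 1 also holds the lowest value of its panel, -0.67 for OSCAR, and HF animal 2 is the lowest HF animal for CTSS, at 0.24. HF animal 4 has the lowest median of its panel, 0.14.

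The animals differed among themselves. In HF the median difference over the 10 members was 0.36, 1.16, 0.50 and 0.14 in animals 1 to 4, with 9, 10, 9 and 7 members higher. Each HF animal's arrays shared a slide, so these are also the differences within slides. Without animals 2 and 3, whose arrays had the low spike-in r2, OSCAR differed by 0.98, with an unadjusted p of 0.00475 and an adjusted p of 1 in limma. In PR the medians were 1.30 for animal 1, which holds the bright array, and -0.03, 0.10 and 0.22 for the others. In deer they were -0.09, 0.01, 0.14 and -0.57. The positions of arrays on their slides also moved with state in HF, since all dry arrays lay at position 1 and the lactation arrays at 3 or 4. With position as a term in the model the HF median was 0.38 and OSCAR differed by 0.86 (SE 0.37, limma adjusted p = 0.966).

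Genes that work with the members lay mostly on the higher side in lactating cattle, none past the threshold. Of 29 partner and pathway genes, 25 were tested, and 21 were higher in HF at peak lactation, 23 in PR and 10 in deer. Limma called none of the 25 in HF, PR or deer. In HF 9 had an unadjusted p under 0.05, all higher, with a list median of 0.30, against 4.83% of all probes. In PR 1 did, against 4.24% of all probes higher, and in deer 0, against 9.05% in either direction. The 5 with the smallest p in HF were HMOX1, which breaks down haem (0.64, adjusted p = 0.363), TLR4, the lipopolysaccharide receptor (0.76), CTSZ, a cathepsin (0.34), SIRPB1, a receptor that signals through TYROBP (0.80), and HP, haptoglobin, the CD163 ligand (1.21).

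Of 29 further monocyte lineage genes, 24 were tested in HF and 19 were higher, 10 with an unadjusted p under 0.05 against 4.83% of all probes, with a median of 0.43. In PR 20 of 24 were higher, 6 at that level against 4.24%, and in deer 13 of 23, with 1 higher and 1 lower at that level against 9.05%, and limma called none in any of these comparisons. Among those with the lowest p-values in HF were TCF7L2, a transcription factor of the Wnt pathway (0.64, adjusted p = 0.251), and FCGR3A, an Fc receptor (1.06). MS4A7 (0.64) was also among them, as was KLF4, a transcription factor of monocyte development (0.64). FCGR3A had the lowest p of the list in PR, at 0.86 (limma adjusted p = 0.849).

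Markers of other blood cells also differed between states, none past the threshold. Of 13 neutrophil genes tested, 12 were higher in HF at peak lactation, with a median of 0.82, and the mean level of that list ran from -0.91 to -0.12 on HF dry and from -0.29 to 0.93 on HF lactation arrays. At an unadjusted p under 0.05 in limma, 7 of the 13 were higher and 1 lower, against 4.83% and 2.82% of all probes. MMP9, the gelatinase of neutrophil granules, differed by 1.66 and the chemokine receptor CXCR2 by 0.82, neither past the threshold. All 9 B cell genes and all 9 NK cell genes tested were lower in HF, with medians of -0.38 and -0.40, and 13 of 15 T cell genes were lower. At that level 3 B cell, 1 NK cell and 1 T cell genes were lower and 0 higher, against 2.82% of all probes lower. In PR 11 of 13 neutrophil genes were higher (median 0.36), and in deer 11 of 13 were lower (median -0.34). At that level 1 was higher in PR, against 4.24%, and 3 were lower in deer, against 9.05% in either direction. The part of other cell types in the members' differences was not tested. On every array at least 12 of 14 neutrophil genes, 15 of 15 T cell genes, 9 of 9 B cell genes and 8 of 9 NK cell genes were above background.

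**Figure D4:**
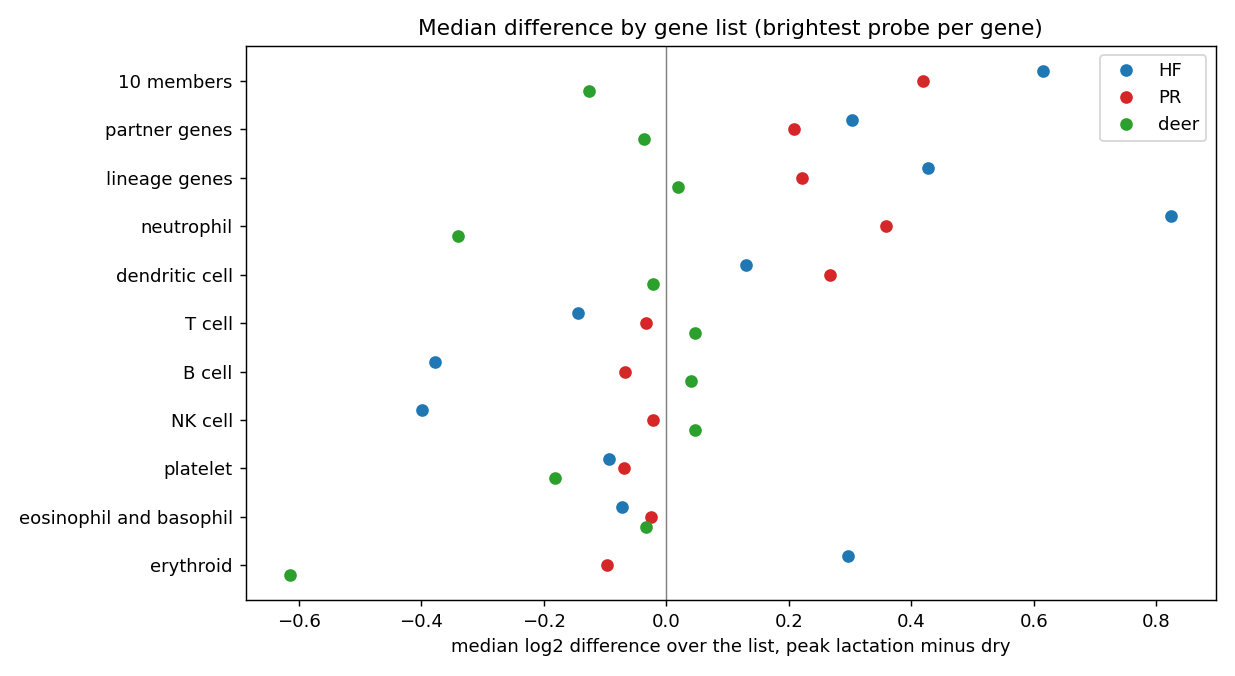
Median difference of log2 ratios, peak lactation minus dry period, on the horizontal axis for the 10 members and for the gene lists drawn, in HF, PR and deer. The gamma delta T cell list, with 1 gene tested and -1.08 in HF, and the list of all leukocytes are not drawn. In HF the neutrophil list lies highest at 0.82 and the members next at 0.61, while the B cell and NK cell lists lie at -0.38 and -0.40.

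The members' patterns over arrays were alike to different degrees. Over the 16 cattle arrays, CD68 and TYROBP had a Pearson correlation of 0.88, the highest for either, and CD68 and FGL2 one of 0.86. OSCAR was most like CD14 at 0.67, and LY86 had a median correlation of 0.13 with the others and -0.47 with OSCAR. Without PR dry animal 1, OSCAR and CD14 correlated at 0.81. In the 8 deer arrays CD68 and OSCAR correlated at 0.90 and LY86 and OSCAR at -0.80. Among 12675 genes outside the lists, the 6 most like the mean of the members over cattle arrays were NFAM1 and CEBPD at 0.95, ACSL6 at 0.94, TMEM120A at 0.93, and MINDY1 and SCARB1 at 0.92. In deer they were SPECC1, C5AR2, PPARD, LONRF3, NFKBIE and PIK3AP1, at 0.95 to 0.96. These are descriptions, since the arrays share the reference and animals appear in both states.

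Between breeds in the dry period, no member passed, while limma called 863 of 32924 probes (2.62%). At an unadjusted p under 0.05 there were 3 members, against 21.6% of all probes. These comparisons use the same arrays as those between states. VCAN was 0.90 lower in HF than in PR on the log2 scale (difference -0.90, SE 0.29, limma adjusted p = 0.0855), and the breeds did not overlap, as in 2.94% of probes in that direction and 6.05% in the other. CTSS differed by 0.64 and CSF1R by 0.43 on the higher side in HF, with adjusted p-values of 0.137 and 0.209. Without PR dry animal 1 these became 0.28 and 0.28. Without PR dry animal 2 both VCAN (-1.07) and CTSS (0.80) passed in limma, at adjusted p-values of 0.0257 and 0.0412. The number of all probes called without that array is not given here, so these calls cannot be read as particular to the members.

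At peak lactation OSCAR was higher in HF than in PR by 1.03 (SE 0.23, limma adjusted p = 0.0884), and its breeds did not overlap, as in 6.65% of probes in that direction and 5.27% in the other. Without HF animals 2 and 3 it was 0.78. VCAN differed by -1.0 (SE 0.29, adjusted p = 0.123 in limma), CD14 by 0.64 and CTSS by 0.57; without HF animals 2 and 3 the CD14 value was 0.16. Limma called none of the 32949 probes (0%), with 4672 (14.2%), 4 members among them, at an unadjusted p under 0.05. The study's own test called 965 probes (2.93%), OSCAR and VCAN among them, and in the dry period 1755 (5.33%) with no member. The breeds mostly lay on separate slides, and no slide held lactation arrays of both. With slide as a term, the only link between breeds is the slide that held PR dry animal 2 beside HF arrays. At peak lactation, where this link is indirect, OSCAR then differed by 0.99 (SE 0.45), VCAN by -0.22, CD14 by -0.13 and CTSS by -0.21. In the dry period VCAN then differed by -0.31 and CTSS by -0.04. A single slide held both breeds in the dry period, where VCAN read -1.27 on HF animal 4 and -0.97 on PR animal 2.

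Most members differed between deer and cattle past the threshold. In the dry period 9 of 10 passed limma's threshold, against 56.7% of all 35175 probes, and at peak lactation 7 of 10, against 48.5% of 34265. The share of called members cannot be read as particular to them, and a difference in transcript level and one in how well cattle probes bind deer transcripts cannot be told apart. In the dry period 6 members were higher in deer than in the mean of both breeds and 3 lower, against 26.3% and 30.4% of all probes. The largest were VCAN at 2.34 (SE 0.25, adjusted p = 7.5e-08) and CD68 at 1.88, with CSF1R at 1.15, CD163 at 0.91, OSCAR at 0.89 and TYROBP at 0.82. With array position as a term TYROBP became 0.64 and no longer passed (limma adjusted p = 0.0513). LY86 was lower by 2.56 on the log2 scale (difference -2.56), CTSS at -1.81 and FGL2 at -1.49.

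For LY86 the dry deer arrays read -2.54, -2.87, -2.52 and -3.04 and the lactation arrays -2.60, -2.21, -2.49 and -2.28. All 8 lay below all 16 cattle arrays. Its second probe, which shares 35 bases with the first as shown above, gave -2.31 in the dry period. At peak lactation CD68 (1.16), VCAN (1.16) and CSF1R (0.81) were higher in deer, and LY86 (-2.18), CTSS (-2.05), FGL2 (-2.03) and CD14 (-0.62) lower, against 21.7% and 26.8% of all probes. OSCAR and TYROBP then differed by only 0.06 and 0.04, and CD163 by 0.44 (adjusted p = 0.0549), short of the threshold in limma. CD163 passed without HF lactation animal 2 (0.60), PR lactation animal 4 (0.48) or deer lactation animal 4 (0.54), without HF animals 2 and 3 (0.62), and under 3 other background or normalization settings, at 0.53 to 0.84. The CD14 call ended without deer lactation animal 1 (-0.53, adjusted p = 0.0769) and without HF animals 2 and 3 (-0.38, adjusted p = 0.0918). It also ended with median centring (-0.28) and for Cy5 alone (-0.42).

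**Figure D5:**
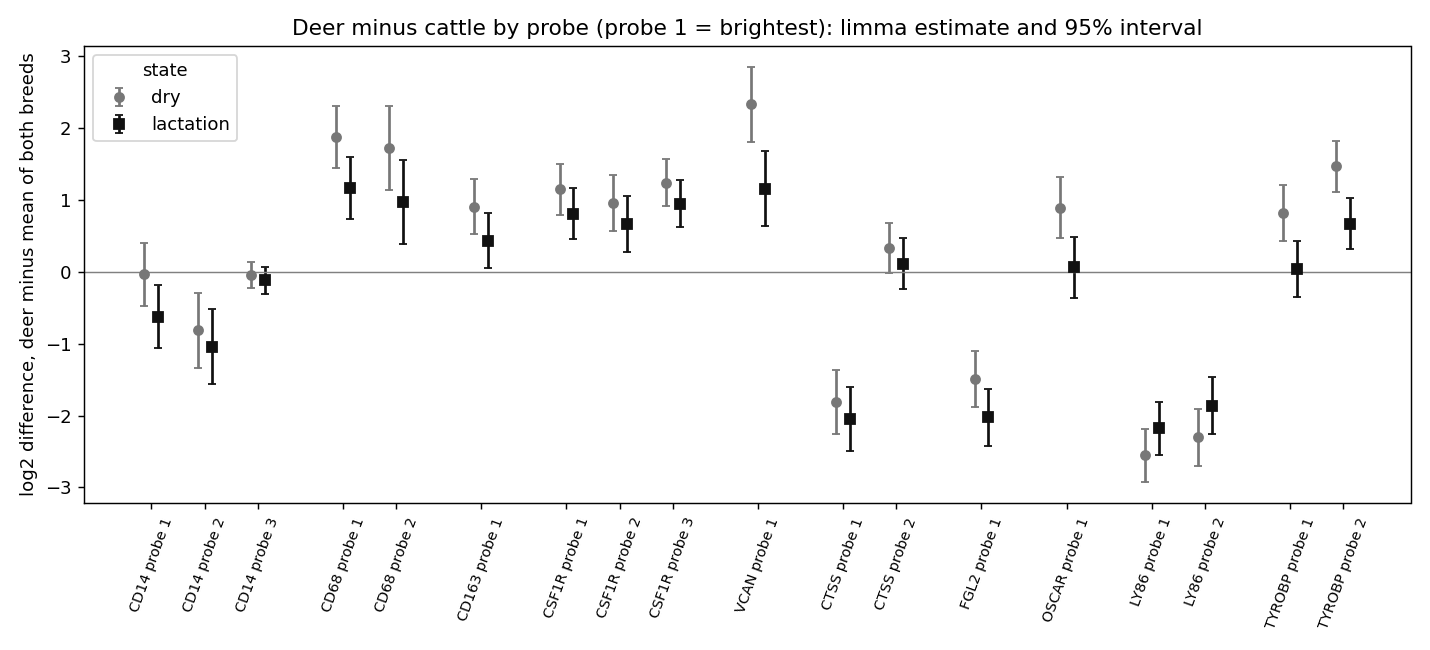
Difference of log2 ratios, deer minus the mean of both cattle breeds, on the vertical axis for each of the 18 probes, with the limma 95% interval, for dry and for lactating animals. The CTSS probes disagree, at -1.81 and 0.33 in the dry period, while the CSF1R probes lie between 0.96 and 1.24 there.

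Probes of a gene did not always give the same answer across species. The brightest CTSS probe, at chr3:20046862-20046921, gave -1.81 in the dry period and -2.05 during peak lactation. The second, at chr3:20047134-20047193, gave 0.33 and 0.12, and neither passed. On deer arrays the second probe read from -0.59 to 0.17, within the -1.72 to 0.55 of cattle arrays, while the first read from -2.69 to -1.97. The lactation minus dry differences of those 2 probes, by contrast, lay within 0.03 of each other in HF, PR and deer. The second TYROBP probe was higher in deer by 1.47 and 0.67, against 0.82 and 0.04 for the first, and the second CD14 probe gave -0.82 and -1.04, against -0.04 and -0.62 for the first. The 3 CSF1R probes gave 1.15, 0.96 and 1.24 in the dry period, all past the threshold.

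The order of the 6 group means was seldom sharp between neighbours. Of 50 neighbouring pairs of groups over the 10 members, 45 overlapped in their array values. The 5 that did not were deer lactation above HF lactation for CD68, HF lactation above HF dry for VCAN and for CTSS, PR dry above deer lactation for FGL2, and HF lactation above deer lactation for LY86. OSCAR was highest in HF lactation, at 0.25 ± 0.48 (SD, n = 4), close to deer dry at 0.21 ± 0.54 (SD, n = 4), and lowest in HF dry, at -0.86 ± 0.27 (SD, n = 4). VCAN ran from deer dry at 1.42 ± 0.70 (SD, n = 4) down to HF dry at -1.36 ± 0.14 (SD, n = 4).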

How the data were processed

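Blood RNA was measured on 24 bovine 2-colour Agilent arrays, 4 per group. The deposited scanner files give, per the file headers, spot intensity in both channels, a log10 ratio of processed Cy5 over Cy3, and other calls on background, saturation and outliers. The authors' deposited tables hold normalized log2 values of selected probes, whose steps are not given in the sources used here. Feature Extraction is given as 10.7.3.1 in the submitters' processing notes but as 10.10.1.1 in the headers. Spot signals were corrected by normexp with an offset of 50 and adjusted by loess within arrays, with the 1417 control spots at weight 0, and spots of a probe were averaged, in limma 3.58.1 under R 4.3.3. Figures used matplotlib 3.10.9.

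Probes entered a contrast if Cy5 exceeded background clearly on 3 or more of 4 arrays of any group in it. Limma fitted 6 group means over 24 arrays, with Benjamini-Hochberg adjustment over all probes tested and a threshold of 0.05. Arrays within a group differ by animal and also by slide or array position. Nothing says whether their handling differed in other ways. The p-values measure the spread between these arrays, which holds all of this, and the number of arrays limits the precision. Of the probes, 33516 carry a gene name, 32855 of them matched in the reference tables. Every member is named. From each gene list up to 5 genes per comparison are named by smallest p, and the 6 genes most like the members by correlation. One gene that this rule names is not reported here. The members, lists and tests were chosen with earlier results of these data known. The procedure was tested on simulated data with independent noise, which held no slide, position or animal structure, so it does not cover those features.

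The subject numbers mark the same animals in both states, per the series text. Each animal's arrays correlated above 0.1, after group means were removed, in 4 HF, 2 PR and 4 deer animals. In HF the arrays of an animal shared a slide, so animal and slide cannot be told apart there. For PR animal 1 the correlation was 0.025, and its best match was another animal. The main model has no animal term, as in the series text, and an animal block was run beside it. Other alternatives changed the background correction, normalization, filter, probe choice, arrays, slide, array position and test.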

Additional observations from a re-analysis of the deposited data

Results flagged for a closer look

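Of 60 groups of 4 arrays examined over the 10 members, 4 held an array apart from the other three by Dixon's criterion, where chance gives about 1 in 20. CD163 on HF lactation animal 2 was 0.63, with the next highest array at -0.54. VCAN on deer lactation animal 3 was 0.61, below the next at 1.07. CTSS on deer dry animal 2 was -2.54, above the next at -2.66. OSCAR on PR dry animal 1 was -0.10, above the next at -0.62, and that array is also the bright one. HF animal 2 is one of the animals with a low spike-in r2. The part of these array properties in the values was not tested. No member's difference between states passed the test of a difference between breeds or between deer and cattle.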

How the results depend on the processing

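No member passed for the states in HF, PR or both breeds together under the alternatives run, with 1 exception, OSCAR in HF by the methods' test. It was called with or without Benjamini-Hochberg adjustment of the analysis of variance over the 6 groups. The Tukey p between the states was not adjusted over probes in either form. With the animal as a replicate block, OSCAR in HF kept its difference of 1.11 (limma adjusted p = 0.121), and the pairing changed no call for the states. A block could not be fitted between breeds or species, nor a fixed slide term between deer and cattle, nor the methods' test for the pooled and response contrasts. Array weights gave 3 members in deer between states (CD163, OSCAR and TYROBP, all lower), 3 in the deer minus cattle responses (VCAN, OSCAR and TYROBP), 1 in HF minus PR in the dry period (VCAN) and 2 at peak lactation (OSCAR and VCAN). Between breeds at peak lactation the methods' test gave the same 2 in both forms. No background subtraction gave 1 (OSCAR), where limma called 270 of 32949 probes, against 0 in the main fit. In the dry period median centring gave 1 (CTSS), where limma called 6023 of 32924 probes, against 863 in the main fit. Leaving out arrays in turn gave 0 to 2 there. Array-wide counts under array weights and with arrays left out are not given here. Those member calls cannot be read as particular to the members. The HF median over the members ran from 0.23 to 0.71, that of PR from 0.23 to 0.60 and that of deer from -0.22 to 0.0034.

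Differences near 0 changed sign. CSF1R in deer turned to -0.010 with offset 16, -0.030 without background subtraction, -0.052 with median centring, -0.091 for Cy5 alone, -0.037 over all probes of the gene, -0.15 with slide and -0.0023 with array position as terms. FGL2 in deer turned to -0.036 without background subtraction, -0.0019 with processed signals, -0.037 with median centring, -0.17 for Cy5 alone and -0.053 with array weights. With slide as a term CD68 and VCAN in deer turned to 0.21 and 0.53, values that rest on the only slide with both deer states. That term also turned CTSS between breeds to -0.045 when dry and -0.21 in lactation. It turned CD14 between lactating breeds to -0.13 and LY86 in pooled cattle to 0.040. LY86 in PR turned to -0.044 with processed signals, -0.19 with weights and -0.040 with position, and in pooled cattle to 0.11 for Cy5 alone and 0.0047 without HF animals 2 and 3. CD163 turned to 0.052 in PR for Cy5 alone, and in pooled cattle to -0.11 without HF animals 2 and 3 and -0.088 without PR dry animal 1 as well, an alternative chosen after seeing the data. In deer minus cattle, dry CD14 turned to 0.15 with processed signals, 0.40 with median centring and 0.24 for Cy5 alone. During lactation OSCAR turned to -0.016 without background subtraction and -0.16 with weights, and TYROBP to -0.0062, -0.24 and, for Cy5 alone, -0.047.

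Leaving out single arrays turned the sign of LY86 in HF (-0.17 to 0.12), PR (-0.18 to 0.15) and pooled cattle (-0.13 to 0.064), CD163 in pooled cattle (-0.062 to 0.16), and CD68 (-0.26 to 0.0098), CSF1R (-0.12 to 0.14) and FGL2 (-0.058 to 0.14) in deer. In deer minus cattle it did so for CD14 when dry (-0.13 to 0.030) and for OSCAR (-0.0088 to 0.18) and TYROBP (-0.055 to 0.20) in lactation. The cause of these changes was not tested.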
